A study of Mus musculus with 7 samples.

Results

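The genes of antigen presentation by the major histocompatibility complex (MHC) were followed in mouse liver RNA, as 10 of the 22564 genes of the deposited expression table. They were taken by symbol, each from the single line that carries it, and cover the class I heavy chains H2-K1 and H2-D1, their light chain B2m, the class II chains H2-Aa, H2-Ab1 and H2-Eb1, the class II exchange factor genes H2-DMa and H2-DMb1, the invariant chain Cd74 and the transactivator Ciita. The livers came from C57bl/6 mice labelled as given PBS, the vehicle (3 libraries), or PTH, parathyroid hormone (4 libraries), and the comparison asks how liver expression differs with PTH. The sample titles are C and a number for PBS, and C+P and a number for PTH. What C stands for, whether all animals shared a further treatment, and the dose, duration and age are not given. The labels also do not say that each library came from a separate mouse, so the tests below measure library-to-library spread, which may be technical. The series title speaks of hepatic fibrosis.

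Class I molecules sit on nearly all nucleated cells and show peptides from the cell's own proteins to CD8+ T cells. Class II molecules are made mainly by dendritic cells, B cells and macrophages, in liver including Kupffer cells, the resident macrophages, and sinusoidal endothelium, and show peptides from taken-up proteins to CD4+ T cells. Class II transcription needs CIITA, which joins RFX, CREB and NF-Y bound to the conserved X and Y boxes of class II promoters, whereas class I promoters also answer to NF-kappaB, interferon regulatory factors and NLRC5. In a whole liver most RNA is from hepatocytes, and fewer cells of a type and less RNA per cell cannot be told apart.

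Promoter sequences are shown for members whose promoter holds a form of these boxes beyond the Y box core GATTGG. RefSeq promoters (GRCm38.p6, 250 bases before to 50 after a gene's start) were matched for 7 of the 10 genes. None was matched for H2-Ab1, Cd74 and Ciita, so these were not searched, and their absence below says nothing about their boxes. The windows below hold the boxes in capitals, written in the direction of the gene. In the 3 class II windows, from H2-Aa (chr17:34287855-34287966, minus strand), H2-Eb1 (chr17:34305761-34305824, plus strand) and H2-DMb1 (chr17:34153082-34153146, plus strand), the first capitals from the left that read CTNGNAACT mark a form of the X box, and the last capitals mark the Y box CTGATTGG or, in H2-DMb1, its core GATTGG alone. The first capitals of H2-Aa mark a kappaB form, GGGNNTTCC.
H2-Aa: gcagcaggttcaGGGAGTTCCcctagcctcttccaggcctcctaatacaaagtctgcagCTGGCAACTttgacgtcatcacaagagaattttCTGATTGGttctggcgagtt
H2-Eb1: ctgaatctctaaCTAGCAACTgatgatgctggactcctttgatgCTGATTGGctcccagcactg
H2-DMb1: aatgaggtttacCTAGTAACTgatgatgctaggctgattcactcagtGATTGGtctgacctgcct
The class I windows, from H2-K1 (chr17:34000320-34000470, minus strand) and H2-D1 (chr17:35262911-35263060, plus strand), are shown for how alike they are, with capitals on the kappaB form, an interferon response form (TTTCNNTTC) and CCAATCAG, which is the Y box letters on the other strand.
H2-K1: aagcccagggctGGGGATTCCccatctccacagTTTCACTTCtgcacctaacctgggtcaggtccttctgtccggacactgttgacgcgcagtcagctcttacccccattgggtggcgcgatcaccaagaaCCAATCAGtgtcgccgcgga
H2-D1: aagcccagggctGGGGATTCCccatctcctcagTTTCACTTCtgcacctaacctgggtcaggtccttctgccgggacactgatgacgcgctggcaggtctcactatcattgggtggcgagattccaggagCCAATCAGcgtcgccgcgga
Over their whole promoters H2-K1 and H2-D1 had 214 identical bases, 89.5% of those aligned, beside 122 gap bases. Searched on both strands in all 32851 RefSeq promoters of the same length, the X box form stood in 4.10%, the Y box in 4.10%, its core in 16.1%, the kappaB form in 5.82% and the interferon form in 7.52%. The core lies inside the Y box, so those 2 matches overlap, and the letters were chosen with these promoters in view. Neither of the 2 promoters listed for H2-DMa holds the X box form, the whole Y box, the kappaB form or the interferon form. The core alone stood in 1 of those 2 and in the B2m promoter, which are not shown. A match describes letters only and is not a measured binding site.

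The libraries were shallow. Estimated reads ran from 1200680 (PBS 3) to 2556673 (PBS 1) in the PBS group and from 1621721 (PTH 4) to 3281505 (PTH 2) in the PTH group. Most genes leaned upward in PTH: the median change of the 11861 tested genes was 0.55 on the log2(FPKM + 0.5) scale, where FPKM is fragments scaled to transcript length and to mapped fragments. As deposited, 22.8% of tested genes rose and 2.37% fell at a limma adjusted p under 0.05. With each library set to a common median, 2.96% rose and 4.75% fell.

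Mean levels over all libraries ran from 674 FPKM for B2m to 0.346 FPKM for Ciita, and the members kept nearly the same order in each library. B2m led in all 7 libraries, H2-K1 was the second and H2-D1 the third in all 7, and Cd74 the fourth in all 7. H2-Aa, H2-Ab1 and H2-Eb1 followed closely spaced, H2-Aa being above H2-Ab1 in 4 of 7 libraries and H2-Ab1 above H2-Eb1 in 6 of 7. H2-Eb1 was above H2-DMa in 7 of 7, H2-DMa above H2-DMb1 in 4 of 7, and H2-DMb1 above Ciita in 6 of 7. The steps between H2-Aa and H2-Ab1 and between H2-DMa and H2-DMb1 were thus within the spread of the libraries.

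**Figure D1:**
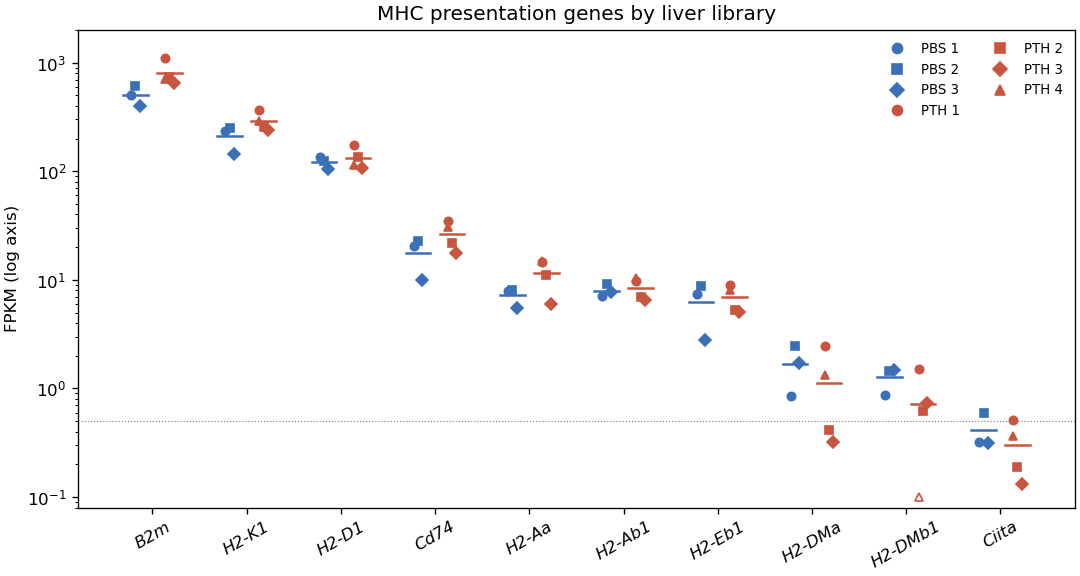
FPKM (log axis) of the 10 members in 3 PBS (blue) and 4 PTH (red) liver libraries, 1 symbol per library, with a short line at each group mean. The dotted line is the 0.5 FPKM minimum and the open triangle is H2-DMb1 in PTH 4, listed at 0 and drawn at the lower edge; the groups are apart for B2m alone.

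None of the 9 members tested passed in either direction, against the 22.8% higher and 2.37% lower among all genes. Ciita did not reach 0.5 FPKM in the 3 libraries that the filter asks for and was not tested. The lowest limma adjusted p was 0.113, for B2m, and 1 member, B2m, had an unadjusted p under 0.05. Of the 9 changes 7 were positive and 2 negative, with a median of 0.21 against 0.55 over all tested genes, and 6 of the 9 lay below that median. With libraries set to a common median the members' median was -0.36 against 0.01, and 8 of the 9 lay below the median of all genes, with a lowest adjusted p of 0.148. Groups did not overlap for 1 of the 10 members, higher in PTH, where 32.9% of all tested genes were higher without overlap and 3.20% lower. With 3 against 4 libraries an exact permutation test cannot go below 0.0571.

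**Figure D2:**
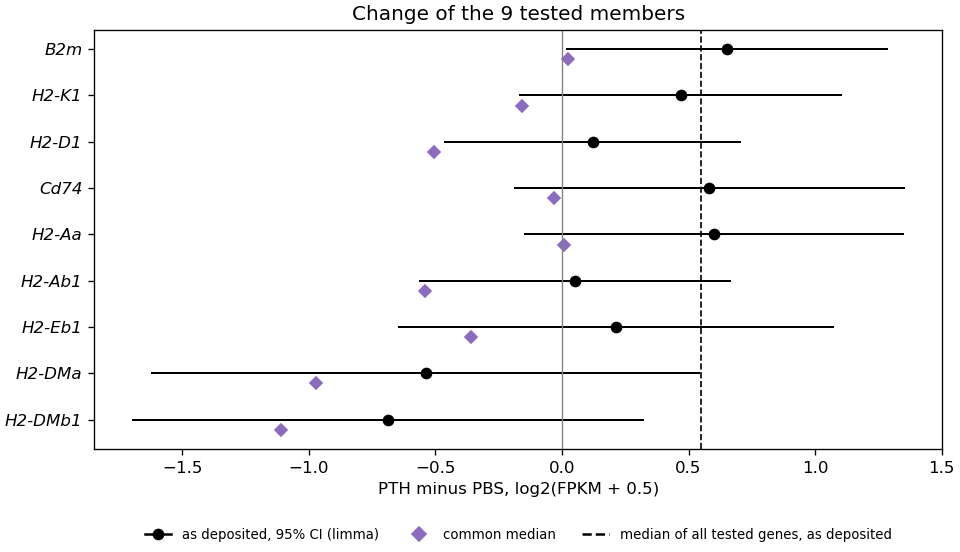
PTH minus PBS change of the 9 tested members on the log2(FPKM + 0.5) scale, black dots with 95% limma confidence intervals, beside the change after setting libraries to a common median (purple diamonds). The dashed line is the median of all tested genes, 0.55; H2-K1, H2-D1, Cd74, H2-Ab1 and H2-Eb1 are positive as deposited and negative at the common median.

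B2m, the light chain that every class I molecule needs to reach the surface (chr2:122147686-122153083, plus strand), was the most abundant member and ranked 52 of 22564 genes. Its PBS libraries read 506, 612 and 400.2 FPKM and its PTH libraries 1100, 740.1, 653 and 707. Each PTH library was above each PBS library, and PTH 1 stood highest. The means were 506 ± 106 (SD, n = 3) and 800 ± 203 FPKM (SD, n = 4). The change of 0.65 (SE 0.29, 95% interval 0.02 to 1.28) did not pass (limma adjusted p = 0.113), and its exact permutation p of 0.0571 is the smallest this design allows. The change was 0.02 at the common median and 0.66 with quantile scaling.

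H2-K1, a classical class I heavy chain that presents peptides to CD8+ T cells (chr17:33996017-34000347, minus strand), read 236, 251 and 145 FPKM in PBS and 366, 258, 238 and 288 in PTH. The groups overlapped at a single point, PBS 2 being above PTH 3, and PBS 3 was well below the rest. The change was 0.47 (SE 0.29, 95% interval -0.16 to 1.10, limma adjusted p = 0.239), -0.16 at the common median and 0.28 with quantile scaling. H2-D1, the other classical heavy chain of this strain (chr17:35262730-35267499, plus strand), read 134, 124 and 105 FPKM in PBS and 176, 135, 107 and 115 in PTH. Apart from PTH 1 the 2 groups covered much the same range. Its change was 0.12 (SE 0.27, 95% interval -0.46 to 0.70, limma adjusted p = 0.751), -0.50 at the common median and -0.31 with quantile scaling.

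The class I values rested on 439 to 3842 estimated reads per library and gene. The genes are alike in sequence: 14.3% of the 50-base stretches of the longest H2-D1 transcript occur in other annotated genes, mostly H2-Q1, H2-Q7 and H2-Q6, and 8.79% of those of H2-K1, mostly in H2-D1. The table also gives H2-D1 one shared locus with Ddx39b, H2-Q1, H2-Q2, H2-Q4 and H2-Q6. The labels do not say how reads were divided among such copies, so H2-K1 and H2-D1 values are uncertain to that extent. B2m has no shared 50-base stretch, though its locus is listed together with Patl2 and Trim69.

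Cd74 encodes the invariant chain, which blocks the class II groove and escorts class II to endosomes, and it was the most abundant class II gene (chr18:60803848-60812652, plus strand). It read 20.7, 22.98 and 9.89 FPKM in PBS and 35.01, 21.98, 17.5 and 30.5 in PTH. PBS 3 was lowest and PTH 1 and PTH 4 were above all PBS libraries, while PTH 2 and PTH 3 lay among them. The change was 0.58 (SE 0.35, 95% interval -0.19 to 1.35, limma adjusted p = 0.229), -0.030 at the common median and 0.046 with quantile scaling.

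H2-Aa, the alpha chain of the I-A molecule (chr17:34282744-34287823, minus strand), read 7.97, 8.07 and 5.51 FPKM in PBS and 14.5, 11.1, 6.05 and 14.9 in PTH. The PTH libraries other than PTH 3 were above every PBS library. The change was 0.60 (SE 0.34, 95% interval -0.14 to 1.35, limma adjusted p = 0.201). Without PTH 3 it was 0.87 with an adjusted p of 0.0788, the lowest of any member under any alternative, and at the common median it was 0.01. FPKM and count did not run in parallel: PBS 1 and PBS 2 had 43.7 and 32.0 scaled counts but 7.97 and 8.07 FPKM. On scaled counts the H2-Aa change was 0.69 (limma adjusted p = 0.142).

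H2-Ab1, the I-A beta chain with which H2-Aa pairs (chr17:34257689-34269419, plus strand), read 7.15, 9.11 and 7.66 FPKM in PBS and 9.72, 6.96, 6.46 and 10.5 in PTH. The PTH libraries lay on both sides of the PBS range. The change was 0.05 (SE 0.28, 95% interval -0.56 to 0.66, limma adjusted p = 0.903), and -0.54 at the common median. H2-Eb1, the I-E beta chain (chr17:34305867-34316674, plus strand), read 7.38, 8.69 and 2.77 FPKM in PBS and 9.05, 5.29, 5.05 and 8.12 in PTH. C57BL/6 mice lack a functional H2-Ea gene, so this beta chain is transcribed without its usual partner. PBS 3, at 7 estimated reads, was the lowest of all, and the change was 0.21 (SE 0.39, 95% interval -0.64 to 1.07, limma adjusted p = 0.701), against -0.25 without PBS 3 and -0.36 at the common median. H2-Aa, H2-Ab1 and H2-Eb1 share no 50-base stretch with other genes, but the table lists all 3 under a single locus.

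H2-DMa and H2-DMb1 encode the DM dimer, which swaps the invariant chain remnant for peptide. H2-DMa (chr17:34119541-34139101, plus strand) read 0.843, 2.44 and 1.71 FPKM in PBS and 2.45, 0.413, 0.323 and 1.32 in PTH. H2-DMb1 (chr17:34153072-34160230, plus strand) read 0.871, 1.45 and 1.49 FPKM in PBS and 1.498, 0.621, 0.727 and 0 in PTH. In both genes PTH 1 was the highest library and PTH 2 and PTH 3 were below the PBS range, so the groups overlapped.

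The DM values were read from very few fragments, 2 to 8 estimated reads per library for H2-DMa and 0 to 6 for H2-DMb1. The 0 of PTH 4 allows up to 3 reads, which covers counting error only. The changes were -0.54 for H2-DMa (SE 0.49, 95% interval -1.62 to 0.54, limma adjusted p = 0.426) and -0.69 for H2-DMb1 (SE 0.46, 95% interval -1.70 to 0.32, limma adjusted p = 0.275). Both intervals include 0. FPKM and count did not run in parallel for H2-DMa, as for H2-Aa. PBS 1 and PBS 2 had 6.62 and 6.74 scaled counts of H2-DMa but 0.843 and 2.44 FPKM, and on scaled counts its change was -0.21. Of the 50-base stretches of H2-DMb1, 27.2% occur in H2-DMb2.

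Ciita, the master regulator of class II transcription (chr16:10480059-10528418, plus strand), was the lowest member. It read 0.324, 0.589 and 0.316 FPKM in PBS and 0.511, 0.188, 0.133 and 0.361 in PTH, from 3 to 13 estimated reads per library. PTH 2 and PTH 3 lay below all PBS libraries and the others did not. The means were 0.410 ± 0.155 (SD, n = 3) and 0.298 ± 0.172 FPKM (SD, n = 4), and the exact permutation p was 0.40. On scaled counts, where the gene passed the minimum of 5, the change was -0.35 with a limma adjusted p of 0.508. Its listed locus also covers Clec16a and Dexi.

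Ratios between members within a library do not depend on a single scaling factor per library, and 7 were tested with exact permutation tests. With 3 against 4 libraries no such p can go below 0.0571, so no ratio could pass 0.05. For H2-DMa over H2-DMb1, where PTH 4 is left out, the smallest possible p is higher still. B2m over the summed class I heavy chains was 1.37, 1.63 and 1.60 in PBS and 2.03, 1.88, 1.89 and 1.75 in PTH. All PTH libraries were above all PBS libraries, and the geometric mean was 1.23-fold higher (exact permutation p = 0.0571, adjusted over the 7 ratios 0.267). H2-K1 over H2-D1 was 1.75, 2.03 and 1.38 in PBS and 2.08, 1.91, 2.22 and 2.49 in PTH, which overlapped at 1 PTH library (1.27-fold, exact permutation p = 0.114, adjusted 0.267). H2-Aa over H2-Ab1, the chains of I-A, was 1.11, 0.886 and 0.719 in PBS and 1.49, 1.59, 0.937 and 1.42 in PTH. That ratio was above 1 in 1 of 3 PBS and 3 of 4 PTH libraries (1.49-fold, exact permutation p = 0.114, adjusted 0.267). Its log2 difference was 0.58 on FPKM and 0.80 on scaled counts.

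In the remaining 4 ratios the groups overlapped, with exact permutation p-values adjusted over the 7 ratios from 0.525 to 0.971. Cd74 over H2-Aa ran from 1.80 to 2.85 in PBS and from 1.98 to 2.90 in PTH (exact permutation p = 0.971). The 3 class II chains summed to 0.0608, 0.0690 and 0.0637 of the class I heavy chains in PBS and to 0.0614, 0.0593, 0.0509 and 0.0831 in PTH (exact permutation p = 0.80). H2-Eb1 over H2-Ab1 was 1.03, 0.954 and 0.361 in PBS and 0.761 to 0.931 in PTH (exact permutation p = 0.857), a log2 difference of 0.19 that was -0.29 without PBS 3. H2-DMa over H2-DMb1, without PTH 4 where H2-DMb1 was at 0, was 0.968, 1.68 and 1.15 in PBS and 1.63, 0.665 and 0.443 in PTH (exact permutation p = 0.30), a log2 difference of -0.65 that was -1.18 without PTH 1, -0.24 without PTH 3 and -0.16 on scaled counts. The summed DM chains were 11.3%, 22.6% and 24.3% of the summed I-A chains in PBS and 16.3%, 5.74%, 8.39% and 5.20% in PTH, a ratio formed after the values were seen and given as a description.

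**Figure D3:**
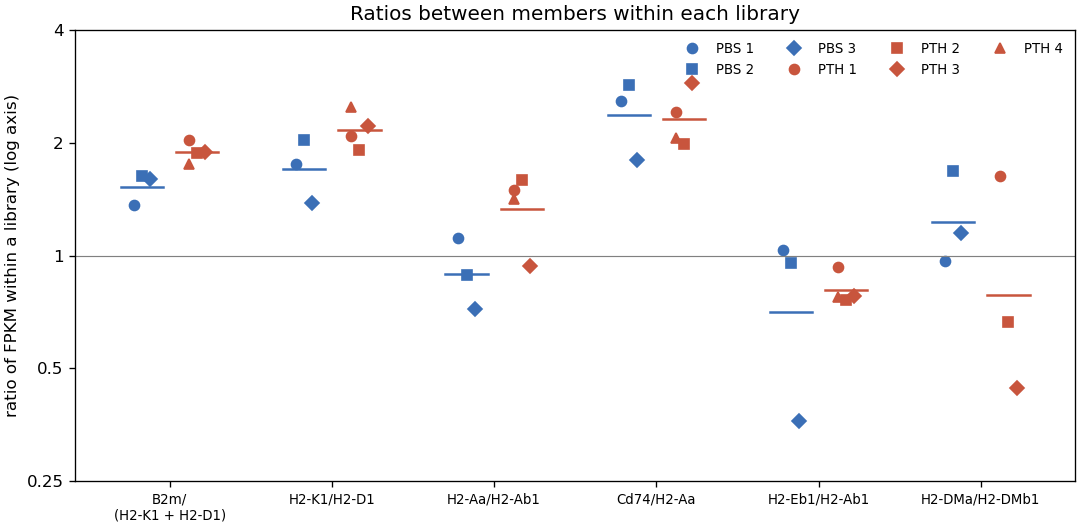
Ratios of FPKM between members within each of 3 PBS (blue) and 4 PTH (red) libraries, on a log axis, with short lines at the geometric means. B2m over the class I heavy chains is 1.37 to 1.63 in PBS and 1.75 to 2.03 in PTH, and H2-DMa/H2-DMb1 lacks PTH 4.

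Members tended to be high or low in the same libraries. Among the PTH libraries, 8 of 10 members were highest in PTH 1 and 9 of 10 were lowest in PTH 3, against 35.1% and 20.6% of all tested genes, and 7 of 10 did both, against 7.55%. Among the PBS libraries, 7 of 10 were lowest in PBS 3, the shallowest, as were 48.8% of all genes. All 8 genes of class I peptide loading and all 5 of the immunoproteasome list were also highest, among the PTH libraries, in PTH 1, and so were 9 of 11 Kupffer and macrophage markers and 7 of 9 hepatocyte markers. These counts describe 7 libraries and carry no test.

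By deviation from the group means, the genes most like the mean of H2-Aa, H2-Ab1, H2-Eb1 and Cd74 across the 7 libraries were Zfp235 (Pearson r = 0.976), Caskin2 (0.967), Selenbp2 (0.964), Akr1b10 (0.960) and Cyp8b1 (0.954). They were the top 5 of 10643 genes searched, so high values are found by choice, and libraries share their depth across all genes.

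The wider class II pathway was counted from lists. The further class II genes H2-Eb2, H2-DMb2, H2-Oa and H2-Ob were in the table but too low to test. Of 7 tested genes of class II transcription, 4 rose and 0 fell, where 22.8% of all tested genes rose and 2.37% fell. Their median was 1.16 against 0.55 for all genes. At the common median 0 of 7 passed either way, and none passed without PBS 3 or without PTH 2. Creb1, whose protein binds the X box region, read 1.78, 1.72 and 1.04 FPKM in PBS and 3.83, 5.49, 4.26 and 4.29 in PTH, a rise of 1.31 (SE 0.31, limma adjusted p = 0.0147). Nfya, the DNA-binding NF-Y subunit at the Y box, rose by 1.39 (SE 0.33, limma adjusted p = 0.0150). Rfxap, a subunit of RFX, rose by 1.34 (SE 0.39, limma adjusted p = 0.0307), and Nfyc, another NF-Y subunit, by 1.16 (SE 0.37, limma adjusted p = 0.0427). The Nfyc groups overlapped, and the gene passed without PBS 1 but not without any of the other libraries, nor on scaled counts (0.71, adjusted p = 0.109). The remaining tested genes Rfx5, Rfxank and Nfyb did not pass, with changes of 0.38, -0.24 and 0.04.

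Of 8 tested genes listed under class II peptide processing, 1 fell and 0 rose, with a median of 0.32, where 2.37% of all tested genes fell. The gene that fell was March1, which, like March8 in this list, is a ubiquitin ligase and not a peptide-processing enzyme. March1, a membrane ubiquitin ligase that sends surface class II for degradation in dendritic cells and B cells, read 4.18, 1.82 and 4.59 FPKM in PBS and 1.32, 0.908, 1.03 and 0.413 in PTH. Each PTH library was below each PBS library, and the fall was -1.47 as deposited (SE 0.40, limma adjusted p = 0.0236) and -1.95 at the common median (adjusted p = 0.0186). It did not pass without PBS 1, PBS 3 or PTH 2, and the change ran from -1.83 to -1.26 as each library was left out. Without PTH 1, 2 genes of the list fell. Ctss, the cathepsin that trims the invariant chain, read 38.6, 33.3 and 40.8 FPKM in PBS and 33.2, 16.6, 12.8 and 19.7 in PTH. Its change of -0.93 just missed (SE 0.32, limma adjusted p = 0.0516), and at the common median it was -1.55 with an adjusted p of 0.0208. March8, a related ligase, had a change of 0.75 (limma adjusted p = 0.0826), and it passed without PTH 4 and on scaled counts (0.81, adjusted p = 0.0344).

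On the class I side, 0 of 8 tested genes of peptide loading passed, with a median of 0.38, and 0 of 5 immunoproteasome genes, with a median of 0.59. The loading genes with the smallest p were Canx, a chaperone of new heavy chains (0.46, limma adjusted p = 0.177), Tap1, a subunit of the peptide transporter (0.83, adjusted p = 0.187), and Erap1, which trims peptides (0.41, adjusted p = 0.277). On scaled counts 2 of the 8 passed, Canx (0.81, limma adjusted p = 0.0299) and Tap1 (1.17, adjusted p = 0.0324). Among immunoproteasome genes Psmb10 had a change of 0.65 (limma adjusted p = 0.217), Psme1 of 0.42 (adjusted p = 0.282) and Psme2 of 0.43 (adjusted p = 0.308). Of 13 tested nonclassical class I genes, 1 rose and 0 fell, with a median of 0.30, where 22.8% of all tested genes rose. That gene, H2-T22, a ligand of some gamma delta T cells, read 15.5, 15.6 and 9.31 FPKM in PBS and 48.7, 44.0, 22.2 and 33.1 in PTH. The groups did not overlap and the rise was 1.40 (SE 0.33, limma adjusted p = 0.0140). At the common median it was 0.79 with an adjusted p of 0.111, and it did not pass without PBS 3 or without PTH 2. H2-T24 (0.91, limma adjusted p = 0.165) and Fcgrt, the neonatal Fc receptor (0.43, adjusted p = 0.184), did not pass. H2-Q10, a secreted class I chain made by liver and named here for its level, read 481, 540.4 and 280.0 FPKM in PBS and 440, 248, 293 and 242 in PTH (-0.49, limma adjusted p = 0.267). At the common median it was the 1 gene of the 13 that fell, by -1.12 (adjusted p = 0.0391).

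Of 13 tested genes of class I transcription and interferon gamma signalling, 3 rose and 0 fell, with a median of 0.79, where 22.8% of all tested genes rose. They were Irf9, an interferon regulatory factor (1.29, SE 0.35, limma adjusted p = 0.0240), Ifngr1, a chain of the interferon gamma receptor (0.92, SE 0.28, adjusted p = 0.0347), and Irf1, a transcription factor of class I promoters (0.98, SE 0.30, adjusted p = 0.0359). None of the 13 rose at the common median or without PBS 3 or PTH 2, and 1 rose without PBS 1 or PTH 4, while 5 rose on scaled counts. Ifng itself was listed at 0 in every library. Nlrc5, the class I counterpart of Ciita and named for that role, read 8.80, 10.3 and 7.47 FPKM in PBS and 7.70, 4.94, 6.36 and 5.73 in PTH (-0.49, limma adjusted p = 0.194). At the common median it was the 1 gene of the list that fell, by -1.08 (adjusted p = 0.0321). Of 6 costimulation genes 3 could be tested and 0 passed, the smallest p being that of Cd274, the ligand of PD-1 (0.95, limma adjusted p = 0.141), followed by Cd86 (-0.21, adjusted p = 0.695) and Icosl (0.0022, adjusted p = 0.998).

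**Figure D4:**
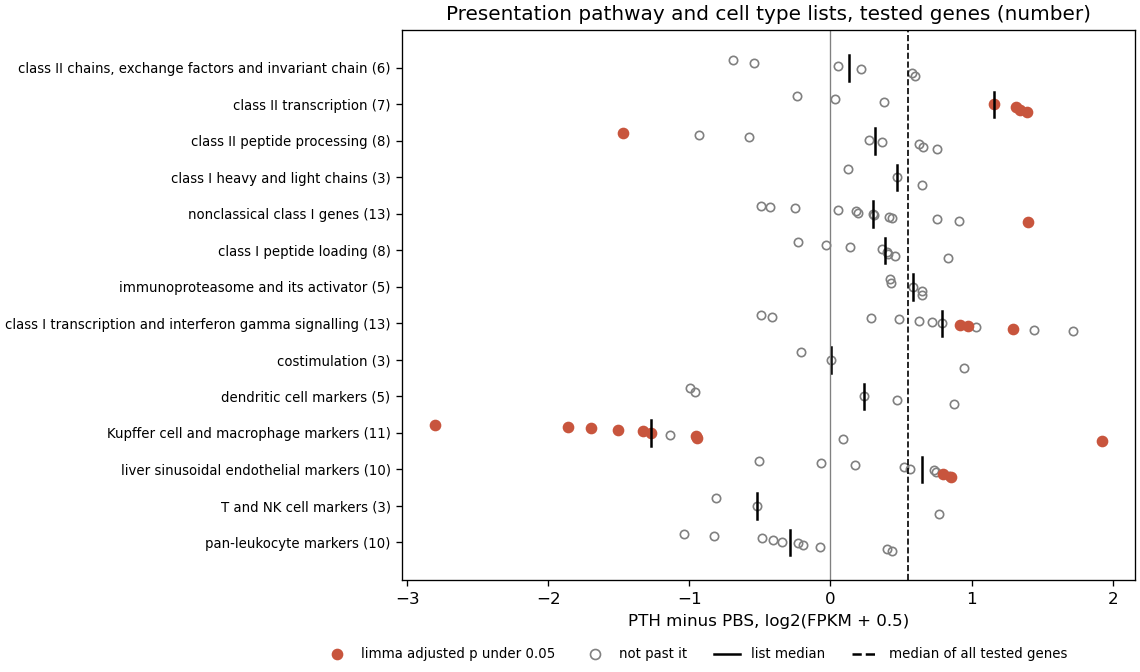
PTH minus PBS changes on the log2(FPKM + 0.5) scale of the tested genes in each pathway and cell marker list except monocytes and hepatocytes (number of genes in parentheses), filled red where the limma adjusted p is under 0.05, with a black bar at the list median. The dashed line is the median of all tested genes, 0.55; at the common median none of the red genes right of 0 passes, while 8 Kupffer and macrophage genes and March1 still do.

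Markers of the cells that carry class II moved unevenly. Of 11 tested Kupffer cell and macrophage markers, 8 fell and 1 rose, with a median of -1.28, where 2.37% of all tested genes fell and 22.8% rose. At the common median 8 fell and 0 rose, where 4.75% of all tested genes fell and 2.96% rose. Leaving out a library, 5 to 9 fell: 5 without PBS 1, PBS 3, PTH 2 or PTH 3, and 9 without PTH 1. Cd163, a haemoglobin scavenger receptor, read 11.6, 6.46 and 10.8 FPKM in PBS and 3.75, 2.62, 1.64 and 1.37 in PTH (-1.86, SE 0.37, limma adjusted p = 0.00798). Clec4f, a lectin of Kupffer cells, fell from 41.8, 43.5 and 18.8 FPKM to 11.8, 11.3, 7.13 and 9.23 (-1.70, SE 0.34, limma adjusted p = 0.00821). Cd68, a lysosomal protein of macrophages, rose by 1.92 (SE 0.38, limma adjusted p = 0.00844; adjusted p = 0.0727 at the common median). The summed level of the 11 markers was 224.9 to 302 FPKM in PBS and 122 to 206 in PTH, so it was lower in PTH while the summed class II chains were 15.9 to 25.9 and 17.6 to 33.5 FPKM. The part of these markers in the class II values was not tested.

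The other marker lists gave few calls. Of 5 tested dendritic cell markers 0 passed, though Itgax did on scaled counts and Batf3 without PTH 1, and the 11 listed summed to 6.15 to 6.76 FPKM in PBS and 6.90 to 8.08 in PTH. Zbtb46, the largest of them, read 1.46 to 2.84 FPKM in PBS and 2.60 to 4.04 in PTH. The tested changes went both ways: 0.88 for Itgax, 0.47 for Zbtb46, 0.24 for Clec9a, -0.96 for Batf3 and -0.995 for Klrd1. The 9 B cell markers in the table were all too low to test, at 1.51 to 3.97 and 1.14 to 2.53 FPKM in sum, with none at 0 in every library. Of 10 sinusoidal endothelial markers 2 rose, Fcgr2b and Clec4g, beside the 22.8% of all genes, and 5 did on scaled counts, but 0 did at the common median or without PBS 2, PBS 3, PTH 2 or PTH 3, while 3 did without PTH 4. They summed to 79.4 to 106 FPKM in PBS and 107 to 145 in PTH. None of 10 pan-leukocyte markers passed (44.1 to 107 and 46.2 to 52.3 FPKM in sum), nor did any of 3 tested T and NK cell markers (2.20 to 6.13 and 1.90 to 4.29). At the common median and without PBS 3, 1 pan-leukocyte marker fell, Laptm5 (-1.04 and limma adjusted p = 0.05004 as deposited, -1.60 and adjusted p = 0.0244 at the common median). Of 8 monocyte markers 1 fell, Fn1, which hepatocytes also make, and 0 did without PBS 1, PBS 2 or PTH 2, while 2 fell at the common median. The sums of the 8 were 496 to 625 FPKM in PBS and 189 to 324 in PTH. Fn1 alone made up most of them, at 515, 451 and 420 FPKM in PBS and 260, 122, 280 and 140 in PTH. These sums therefore describe Fn1 more than the list. Of 9 hepatocyte markers 1 fell, Fga. Hepatocyte markers summed to 14390 to 33789 FPKM in PBS and 21402 to 36133 in PTH.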

How the data were processed

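The data were 7 mouse liver RNA libraries, 3 PBS and 4 PTH by the treatment label. The table holds an FPKM and a count column per library, as named per the file headers. Per the submitters' processing notes, Bowtie 0.12.2 and the build mm8 were used, with no tool named for quantification. Coordinates are those of GENCODE M21 on GRCm38, since the gene positions in the table match that build and not mm8. Values in the deposited count columns were treated as a scaled signal: 92.4% to 94.2% of values per library are whole multiples (within 0.05) of a step taken as 1 read, which gave the estimated reads. No count test was run on them.

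The 11861 genes that reached 0.5 FPKM in 3 or more libraries were fitted as log2(FPKM + 0.5) with limma 3.58.1 in R 4.3.3 (eBayes, trend and robust), with Benjamini-Hochberg adjustment over all of them and a two-sided threshold of 0.05. This scale understates changes of low genes. Permutation tests were exact and two-sided (SciPy 1.17.1) under Python 3.11.15, promoters were aligned with Biopython 1.88, and figures were drawn with matplotlib 3.10.9. The fit was tested on simulated data.

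The members, lists and ratios were chosen with earlier results of these data known. The 3 genes with the smallest p were named for the pathway lists and the Kupffer cell list, and the other marker lists are given by counts, beside any gene said to be named for its role or level and any small count spelled out. Same-numbered libraries did not deviate together (correlations of -0.0306, -0.156 and 0.0103). This gave no sign that the numbers pair them, but so few values cannot exclude it. Across genes, libraries correlated at 0.875 to 0.945 within a group and 0.799 to 0.889 between groups. The sources used here do not give the use of strand in counting. Some items are not reported here.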

Additional observations from a re-analysis of the deposited data

Results flagged for a closer look

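Among 16 groups of 4 PTH values checked, 1 held a library far from the others. The ratio of H2-Eb1 to H2-Ab1 was 0.931 in PTH 1 against 0.761, 0.781 and 0.774 in the other PTH libraries, a gap of 0.881 of the group's range, past Dixon's critical value at the 95% level. Chance gives about 1 such gap in 20 groups. The values rested on 23 to 46 estimated reads for H2-Eb1 in the PTH libraries. PBS groups, of 3 values each, were not covered by this check. There the H2-Eb1 to H2-Ab1 ratio was 1.03, 0.954 and 0.361, a log2 SD of 0.84 against 0.14 in PTH.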

How the results depend on the processing

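No member passed in either direction in any of the 16 alternatives, and the lowest adjusted p was 0.0788 (H2-Aa without PTH 3). Of 153 alternative values of a member's change, 138 kept their sign and 15 did not. This tally overstates agreement. Dropping the filter, a minimum of 1 FPKM and limma without trend and robust cannot alter a member's change, so those signs were fixed beforehand. The values with the replicate number as a block repeat those without PTH 4. Leaving out a library, the change of H2-Ab1 ran from -0.059 (without PTH 4) to 0.16, that of H2-Eb1 from -0.25 (without PBS 3) to 0.50 and that of H2-D1 from -0.020 (without PTH 1) to 0.22. At the common median the changes were -0.54 for H2-Ab1, -0.36 for H2-Eb1, -0.030 for Cd74, -0.16 for H2-K1 and -0.50 for H2-D1. With quantile scaling they were -0.54 for H2-Ab1, -0.36 for H2-Eb1 and -0.31 for H2-D1, beside 0.66 for B2m and 0.28 for H2-K1, and on scaled counts -0.027 for H2-Ab1. None of 55 alternative values of the ratios moved by more than 1 SD between replicates, taking the larger group SD. Leaving out a library cannot shift a group mean that far, so this check bears only on the scaled-count values among them. H2-Eb1 over H2-Ab1 turned from a log2 difference of 0.19 to -0.29 without PBS 3, and H2-DMa over H2-DMb1 ran from -1.18 to -0.16. Cd74 over H2-Aa and class II over class I, both near 0, also changed sign when a library was left out.

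Counts over all genes moved between settings. The count of members passing was 0 in each and could not fall, though their changes shifted as given above. Leaving out a library gave 970 (without PTH 2) to 2710 (without PTH 1) genes higher and 119 (without PTH 2) to 431 (without PTH 1) lower, against 2709 and 281. The common median gave 351 and 563, quantile scaling 467 and 510, and no filter 1432 and 164. With the replicate number as a block, 1558 genes were higher and 177 lower, the change of H2-Ab1 was -0.059, and no member passed. PTH 4 has no PBS library of its number, so it adds nothing to that comparison. The members' changes there equal those without PTH 4. By construction, leaving out a library leaves fewer samples and no filter adds genes to the adjustment. The cause of these shifts was not tested. Count-based tests with edgeR and DESeq2 were not run, since the count columns did not give back whole reads. Depth limits the exchange factors and Ciita, at 0 to 13 estimated reads.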
